A study of Mus musculus with 3 samples.

Results

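In Pan02 cells that stably carried POH1-Flag, 4196 of 22647 MYC peaks lay inside protein-coding genes, away from gene ends, at places with no MYC peak in vector cells and no Flag peak. They were chosen by their absence from the other peak lists: a member shared no base with a vector MYC peak or a Flag peak. Its summit had to lie on chromosomes 1 to 19 or X, inside a RefSeq protein-coding gene, and more than 1 kb from both ends of every protein-coding gene. Of the 22241 peaks on these chromosomes, 11783 (53%) had no vector or Flag peak, and of the 6766 intragenic peaks 4196 (62%) had none. Those shares are set by the selection and are a description.

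The series compared 3 CUT&Tag libraries of Pan02, a mouse pancreatic cancer line, with 1 library per group. One library used anti-Flag antibody in cells stably expressing POH1-Flag, one used anti-MYC antibody in the same kind of cells, and one used anti-MYC antibody in cells with the vector. All cells were the same line, and the labels do not say whether the stable cells were a clone or a pool, what promoter drove the construct, or how much endogenous POH1 remained. No group had a replicate, so differences between the cell lines have no replicate check, and all intervals are 95% intervals for counting error within a library. Pan02 identity could be checked only through which marker genes had peaks, since peak lists hold no expression. In the POH1-Flag MYC list, 4 of 9 ductal markers (Krt7, Sox9, Muc1 and Spp1) had a peak within 1 kb of an end. The counts were 0 of 9 acinar, 0 of 5 T cell, 0 of 3 endothelial, 0 of 5 neuronal, 1 of 7 fibroblast (Pdgfrb) and 2 of 4 macrophage markers. Over all protein-coding genes, 28.5% had a vector MYC peak near an end, 12.5% one in POH1-Flag cells alone and 59.0% neither. Beside these shares the small marker counts do not settle identity.

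MYC is a basic helix-loop-helix transcription factor that pairs with MAX and binds the E-box CACGTG and close variants, mostly at active promoters and enhancers of proliferating cells. POH1 is the product of Psmd14, a deubiquitinase in the lid of the proteasome that removes ubiquitin chains from proteins entering the proteasome. In CUT&Tag an antibody draws a transposase to its target, and the DNA nearby is cut and tagged for sequencing. A gene body can hold enhancers and also alternative promoters, which are transcription start sites downstream of the gene's outermost start.

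Such internal starts were the one place where sequence could be read beside the peaks. Of the 4044 members on chromosomes with starts in the RefSeq promoter table, 320 (7.91%, interval 7.12 to 8.79%) had a summit within 300 bp of a RefSeq start inside a gene. A few starts are shown because their peaks were among the strongest of these and their upstream sequence carries an E-box or its variant. Each is the 250 bases before the start, 5′ to 3′ on the gene's strand, from RefSeq on GRCm38.p6. Capitals mark CACGTG in all but the last, and CACGCG or its reverse complement CGCGTG in the last, Prkag2.

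Eif4e, chr3:138527018-138527267, plus strand: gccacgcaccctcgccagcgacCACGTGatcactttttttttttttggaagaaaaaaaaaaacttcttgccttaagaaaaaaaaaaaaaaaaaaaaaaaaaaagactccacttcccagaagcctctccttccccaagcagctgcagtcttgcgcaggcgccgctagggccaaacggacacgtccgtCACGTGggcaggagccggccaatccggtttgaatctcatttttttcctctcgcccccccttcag

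Mad1l1, chr5:140174919-140175168, minus strand: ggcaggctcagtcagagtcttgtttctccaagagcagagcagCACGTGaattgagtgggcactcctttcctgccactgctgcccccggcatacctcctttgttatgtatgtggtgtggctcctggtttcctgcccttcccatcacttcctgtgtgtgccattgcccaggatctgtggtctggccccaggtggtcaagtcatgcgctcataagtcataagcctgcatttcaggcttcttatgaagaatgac

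Zbtb11, chr16:55973554-55973803, plus strand: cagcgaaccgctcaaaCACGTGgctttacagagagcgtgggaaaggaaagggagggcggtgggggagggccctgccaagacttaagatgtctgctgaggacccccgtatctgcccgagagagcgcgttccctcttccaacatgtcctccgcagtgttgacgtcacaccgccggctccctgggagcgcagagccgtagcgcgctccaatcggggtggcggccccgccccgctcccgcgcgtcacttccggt

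Abcc4, chr14:118706220-118706469, minus strand: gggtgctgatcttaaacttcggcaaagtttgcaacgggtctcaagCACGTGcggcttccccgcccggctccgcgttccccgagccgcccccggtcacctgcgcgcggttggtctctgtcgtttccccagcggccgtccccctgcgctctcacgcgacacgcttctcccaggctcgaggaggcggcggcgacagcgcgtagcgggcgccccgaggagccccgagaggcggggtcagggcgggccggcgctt

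Zfp59, chr7:27838334-27838583, plus strand: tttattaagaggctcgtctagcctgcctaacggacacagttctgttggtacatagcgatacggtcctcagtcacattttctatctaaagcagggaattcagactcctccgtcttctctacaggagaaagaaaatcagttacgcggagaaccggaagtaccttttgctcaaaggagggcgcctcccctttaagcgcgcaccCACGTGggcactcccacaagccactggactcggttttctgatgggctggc

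Prkag2, chr5:24908510-24908759, minus strand: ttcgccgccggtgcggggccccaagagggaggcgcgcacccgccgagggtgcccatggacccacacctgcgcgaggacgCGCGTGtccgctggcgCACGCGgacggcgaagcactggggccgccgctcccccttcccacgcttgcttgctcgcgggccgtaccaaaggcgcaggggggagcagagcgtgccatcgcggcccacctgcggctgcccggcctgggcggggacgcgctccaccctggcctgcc

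Eif4e encodes the cap-binding protein of translation initiation and is a textbook MYC target. Its window holds 2 E-boxes, the nearer beginning 64 bp before the start, and the summit lay 54 bp downstream of that start with 29 reads. A vector peak lay 183 bp away from this peak, and the gene's outer 5′ end had 23 reads in POH1-Flag cells and 21 in vector cells. Mad1l1, a spindle checkpoint gene, had a summit of 24 reads 52 bp upstream of a start that lies 147 kb inside the gene, with its E-box 208 bp before that start. The outer 5′ end of Mad1l1 had 22 reads in POH1-Flag cells and 10 in vector cells. In Zbtb11 the summit of 24 reads fell 224 bp upstream of the start, and the E-box begins 234 bp upstream, a few bases from the summit. A vector peak lay 657 bp away. Abcc4, a drug and cyclic nucleotide exporter, had 26 reads with the summit 147 bp upstream and the E-box 205 bp upstream. Zfp59, a zinc finger gene, had 18 reads with the summit 62 bp downstream and the E-box 50 bp upstream. Prkag2, a regulatory subunit of the energy sensor AMPK, had 30 reads 138 bp upstream of a start 198 kb inside the gene, in a window of 77.2% G and C with no CACGTG and 2 copies of the variant. These genes and the other internal-start genes below were named after their values had been seen.

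The members were weaker peaks than those shared with vector cells. Weak peaks are more often missing from another list, and members were selected by such absence, so the comparison is a description. Summit pileup, the number of overlapping reads recovered from the authors' fold and p-value, had a median of 12 reads, quartiles of 9 and 15, and a range of 5 to 72. The 2127 intragenic peaks shared with vector cells had a median of 22 reads, with quartiles of 17 and 29. The median was 12 reads for intragenic peaks that meet a Flag peak, and among peaks with no vector or Flag peak 10 between genes and 14 at gene ends. The median local background was 1.62 reads at members and 2.81 at shared peaks, and the median widths were 313 and 608 bp. The authors' −log10 q ran from 1.30 to 21.3 among members, with 1567 (37.3%) at 5 or more and 189 (4.50%) at 10 or more. Relative to the vector library, background depth was 1.06 in the POH1-Flag MYC library and 1.05 in the Flag library. The lowest pileups that were called at all were 7, 6 and 5 reads for Flag, vector MYC and POH1-Flag MYC. A place without a called peak has no value in the lists, so the vector signal at a member is unknown, not 0.

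**Figure D1:**
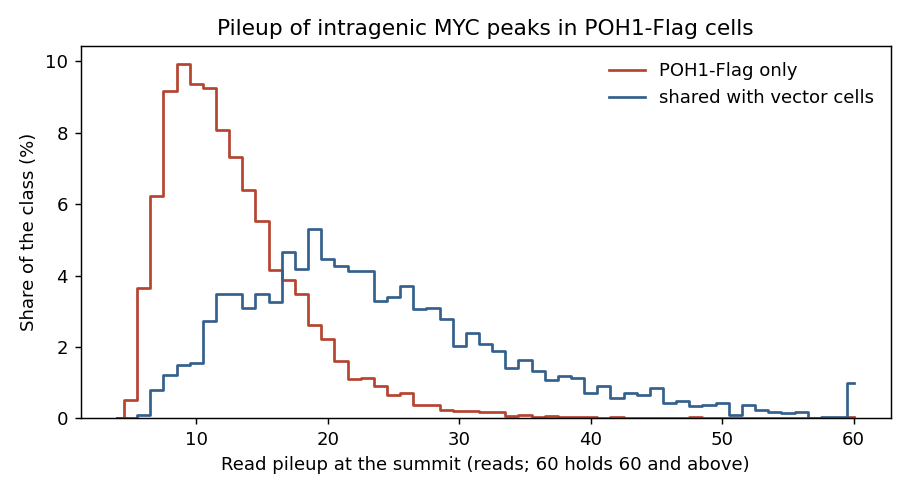
Share of each class (%) by read pileup at the summit, for the 4196 members (red) and the 2127 intragenic MYC peaks shared with vector cells (blue), both in the POH1-Flag MYC library. Members have a median of 12 reads and shared peaks of 22, and the distributions overlap. Selecting members by absence from the other lists favours weak peaks.

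Vector peaks were near some members without touching them. A vector MYC peak lay within 500 bp of 133 members (3.17%), within 2 kb of 322 (7.67%) and within 10 kb of 867 (20.7%), and the median gap was 40.9 kb. In 24 members the gap was at most 100 bp, and the smallest was 1 bp. At the other side of the overlap rule, 19 shared peaks met a vector peak by under 50 bp. The Flag list is short, with 2936 peaks, and members were chosen to meet none of them. The median gap to a Flag peak was 401 kb, against 395 kb and 472 kb for such peaks between genes and at gene ends, and 93 members (2.22%) had one within 10 kb. Just inside the 1 kb limit were the members in Tctex1d4 (1004 bp from an end, 18 reads), Slc25a46 (1006 bp, 17 reads) and Pcgf5 (1009 bp, 17 reads). Just outside it were peaks at Lemd2 (996 bp, 22 reads), Fam98c (995 bp, 14 reads) and Foxq1 (994 bp, 20 reads).

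The strongest members lay mostly more than 10 kb from a gene end, as members did in general, in genes of varied function. Within 10 kb of an end lay 33.5% of all members and 33.3% of those with −log10 q of at least 10. Trerf1, a zinc finger regulator of transcription, held the member with the highest −log10 q (21.3) at chr17:47293960-47294491, with 33 reads, 68.0 kb from the nearest gene end and 157 kb from the nearest vector peak. Neither MYC list had a peak at the ends of Trerf1. Fnip2, a partner of folliculin in nutrient signalling, held 34 reads at chr3:79551940-79552577, 16.0 kb inside the gene. Hpf1, a partner of PARP1 in DNA repair, held 26 reads at chr8:60901841-60902214. Both Fnip2 and Hpf1 also had a gene-end peak in each MYC list.

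Slco2a1, a prostaglandin transporter, held 31 reads in its strongest of 3 members, and also 1 shared intragenic peak. Ccdc12, a spliceosome component, held 33 reads, with a vector peak 0.46 kb away. Arhgap26, a GTPase-activating protein, held 6 members, the strongest with 26 reads. Il34, a ligand of the macrophage receptor CSF1R, held 25 reads, Nmnat2, an enzyme of NAD synthesis, 26 reads, and C2cd5, which acts in glucose transporter trafficking, 24 reads. Cc2d2b held 24 reads, 70.3 kb from the nearest vector peak. The remaining pair of the 12 strongest, Cntrl and Zer1, had their summits at internal starts. Myc, Max and Psmd14 held no member. In their length classes, under 10 kb, 10 to 30 kb and 30 to 100 kb, only 1.89%, 8.53% and 19.8% of genes held one.

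By distance from gene ends, density was highest close to 5′ ends. Eligible sequence, inside genes and more than 1 kb from every gene end, came to 987 Mb and held 4.25 members per Mb (4.13 to 4.38). Between 1 and 2 kb from the nearest gene end the density was 9.98 per Mb (9.0 to 11.04). It was 5.10 per Mb at 2 to 5 kb, between 4.57 and 4.66 from 5 to 50 kb, 3.87 at 50 to 100 kb and 2.30 beyond 100 kb. Shared intragenic peaks started at a similar 8.93 per Mb (8.0 to 9.93) at 1 to 2 kb but were at 1.74 per Mb by 20 to 50 kb and 0.539 beyond 100 kb. The members' median distance to a gene end was 19.6 kb (18.3 to 20.8), against 10.4 kb (9.44 to 11.3) for shared peaks and 31.6 kb (28.4 to 35.9) for intragenic MYC peaks that meet a Flag peak. Within 10 kb of an end lay 33.5% of members and 49.2% of shared peaks, a difference of -15.7 percentage points (-18.2 to -13.1).

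The excess near ends was on the 5′ side. Among genes with a known strand, 16.3 members per Mb (14.3 to 18.6) lay 1 to 2 kb from the 5′ end and 3.67 per Mb (2.75 to 4.80) at the same distance from the 3′ end. Without the members at internal starts, but over the same eligible bases, the 5′ value was 10.8 per Mb (9.13 to 12.6). At 2 to 5 kb the values were 6.47 and 3.70 per Mb, and by 10 to 20 kb they were 4.94 and 4.96. Of the 3234 members with a strand, 1857 (57.4%, 55.7 to 59.1%) were nearer the 5′ end of their gene. The share was 65.6% for shared peaks and 51.2% (45.9 to 56.5%) for peaks meeting Flag. With peaks at internal starts left out it was 54.7% (52.9 to 56.5%) for members and 59.1% (56.3 to 61.8%) for shared peaks.

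**Figure D2:**
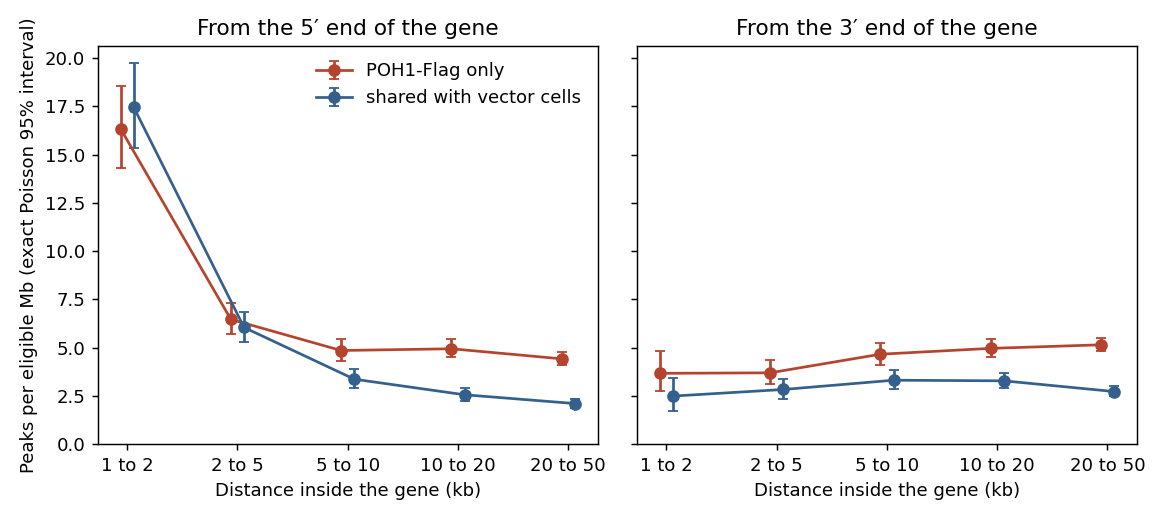
Peaks per eligible Mb by distance inside the gene (kb) from its 5′ end (left) and 3′ end (right), with exact Poisson 95% intervals, for members (red) and shared intragenic MYC peaks (blue). Members reach 16.3 per Mb at 1 to 2 kb from the 5′ end against 3.67 at the 3′ end.

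At internal starts the members were dense. Bases within 300 bp of an internal start made up 0.387% of eligible sequence and held 86.7 members per Mb (77.5 to 96.8), against 3.92 per Mb (3.79 to 4.04) elsewhere. Shared peaks were denser there, at 128 per Mb (117 to 140), against 1.69 elsewhere, and 472 of 2076 of them (22.7%) were at such a start. The difference between members and shared peaks was -14.8 percentage points (-16.8 to -12.9). None of 435 intragenic MYC peaks that meet a Flag peak was at an internal start, which allows a share of up to 0.690%. Among intragenic peaks of the vector list alone, 14 of 533 (2.63%) were at a start. Among POH1-Flag MYC peaks between genes with no vector or Flag peak, 88 of 4592 (1.92%) were at a start. Peaks between genes lie over 1 kb from every protein-coding gene, so that class leaves out protein-coding starts by definition. Its share is therefore not comparable with that of members. The share moved with peak strength: it was 12.2% among members with −log10 q of at least 5 and 15.6% at 10 or more.

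Of the 320 members at internal starts, 290 were at a start of the host gene itself and 30 at the start of a lncRNA. The median summit lay 25 bp downstream of the start (interval -1 to 49 bp). The 290 starts had a median distance of 5.16 kb from the outer 5′ end of their gene, with 143 within 5 kb and 34 beyond 50 kb. At that outer end, 51 (17.6%) had a vector MYC peak, 17 had a MYC peak in POH1-Flag cells alone and 222 had a peak in neither MYC list. Outer 5′ ends of other genes are not set beside these counts, so whether they are particular to these starts is unknown.

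**Figure D3:**
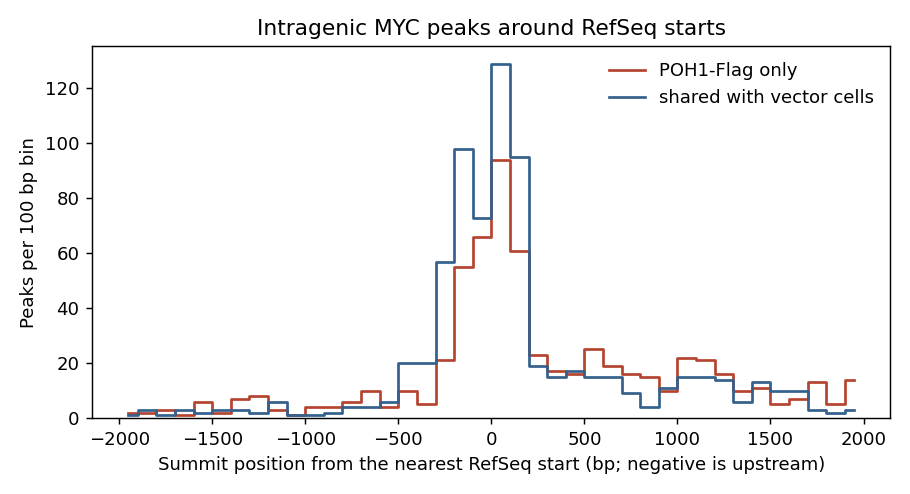
Number of intragenic MYC peaks per 100 bp bin by summit position from the nearest RefSeq start (bp, negative is upstream), for members (red) and shared peaks (blue) of the POH1-Flag MYC list. Both classes pile up within 300 bp of the start, 320 members and 472 shared peaks.

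Individual internal starts showed both patterns. Cntrl, which encodes the centrosomal protein centriolin, had 29 reads at a start 22.8 kb into the gene, while its outer end had 36 reads in POH1-Flag cells and 29 in vector cells. Zer1, a substrate receptor of a cullin ubiquitin ligase, had 31 reads at a start 1.68 kb into the gene. Its outer end had no MYC peak in either list. The same held for Mat2b (29 reads, start 2.52 kb in), a regulatory subunit of S-adenosylmethionine synthesis, and Tank (22 reads, 14.6 kb), which binds TRAF proteins. It also held for Aars2 (18 reads, 3.33 kb), the mitochondrial alanyl-tRNA synthetase, and Ercc5 (23 reads), a repair endonuclease. The Ercc5 start lay only 0.796 kb from the outer end, with the summit 1013 bp from it. Srsf11, a splicing factor, had 23 reads at the internal start, and 22 and 14 reads at the outer end in POH1-Flag and vector cells.

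Windows at starts with a member were rich in G, C and CpG, and held E-boxes more often than windows at internal starts with no MYC peak. They ran from 250 bases before to 50 after the start, and 366 internal starts with a member were set beside 555 with a shared peak, 5648 with no MYC peak and 32585 starts in the whole table. Motifs were searched on both strands, and a window may hold several. The E-box CACGTG was in 9.29% of windows with a member (6.72 to 12.7%), 11.2% with a shared peak, 4.96% with no MYC peak and 7.20% of all. The difference from starts with no MYC peak was 4.33 percentage points (1.70 to 7.79), and from all starts 2.09 (-0.488 to 5.52). The variant CACGCG was in 16.7%, 21.4%, 4.82% and 9.32% of the same sets.

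The GC box GGGCGG was in 56.0% of member windows, 70.8% with a shared peak, 21.9% with no MYC peak and 35.9% of all. The ETS core CCGGAAG was in 17.5%, 17.5%, 3.08% and 8.92%, and the NRF1 core in 9.02%, 14.2%, 1.01% and 4.62%. The CCAAT box was in 32.5%, 39.5%, 33.3% and 37.6%, and the AP-1 site TGANTCA in 7.92%, 6.67%, 8.45% and 7.85%. Median G and C content was 60.7%, 64.3% and 50.7% in windows with a member, a shared peak and no MYC peak, and the median observed over expected CpG ratio 0.706, 0.813 and 0.274. Among windows with a CpG ratio of 0.5 or more, CACGTG was in 29 of 277 with a member (10.5%, 7.39 to 14.6%), 8.39% with no MYC peak (6.97 to 10.1%) and 10.9% of all, and these intervals overlap. Such windows were 75.7% of those with a member and 22.0% of those with no MYC peak. The other motifs were not compared within a CpG class, so the part of CpG content in their shares was not tested. Neighbouring starts of a gene share bases, so the windows are not independent.

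Members were spread over 2832 of 21631 protein-coding genes (13.1%), with 2007 genes holding 1, 825 holding 2 or more and 68 holding 5 or more. Host genes were long, with a median of 73.9 kb against 17.3 kb for all genes. The share of genes with a member was 1.89% under 10 kb, 8.53% at 10 to 30 kb, 19.8% at 30 to 100 kb, 42.4% at 100 to 300 kb and 61.6% above 300 kb. Per eligible Mb the order was the opposite, from 8.38 in genes under 10 kb to 4.73 at 100 to 300 kb and 2.46 above 300 kb. Shared peaks thinned out more steeply, from 6.54 to 1.98 and 0.701 per Mb in the same classes.

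Genes with the most members were all long, and the median pileup of their members ran from 8 to 14.5 reads, against 12 for all members. Stard13, which encodes a GTPase-activating protein, held 9 members with pileups from 9 to 25 reads and 5 shared peaks over 391 kb. Ank3, the ankyrin G scaffold of membrane proteins, held 9 with 6 to 17 reads. Ctif, a translation factor of the nuclear cap-binding complex, was the most crowded, with 8 members of 12 to 22 reads in 266 kb, or 3.0 per 100 kb. Babam2 encodes a subunit of the BRCC36 deubiquitinase complexes, whose catalytic subunit belongs to the same JAMM family as POH1, and held 8 members of 6 to 16 reads. Akap6, an anchoring protein of protein kinase A, Pde4d, a cyclic AMP phosphodiesterase, and the synapsin gene Syn3 also held 8 each. Pde4d, at 1302 kb, had 0.615 per 100 kb, while Stard13 had 2.30.

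A MYC peak at the gene end was about as common in host genes as in all genes. A vector MYC peak within 1 kb of an end was present in 824 hosts (29.1%), against 28.5% of all genes and 29.2% of genes of the same length classes. A gene-end MYC peak in POH1-Flag cells alone was present in 405 hosts (14.3%), against 12.5% of all genes and 13.6% at the same lengths. The remaining 1603 hosts (56.6%) had none, against 59.0% and 57.2%. Counted by peak, 29.0% of members and 31.6% of shared intragenic peaks were in a gene with a vector gene-end peak, a difference of -2.61 points (-5.03 to -0.224).

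Gene length mattered for this comparison. Per eligible Mb, members were at 5.0 (4.72 to 5.29) in genes with a vector gene-end peak, 5.02 (4.63 to 5.43) where the gene end had a peak in POH1-Flag cells alone, and 3.82 (3.67 to 3.97) where it had none. In genes above 300 kb the values with a vector gene-end peak and with none were 4.56 (3.83 to 5.39) and 2.12 (1.95 to 2.31). At 10 to 30 kb the order was turned, at 5.05 (4.33 to 5.85) and 6.61 (5.94 to 7.34). More than 10 kb from gene ends and away from internal starts, the densities were 4.90, 4.54 and 3.08 per Mb. Intragenic MYC peaks that meet a Flag peak were at 0.452, 0.403 and 0.456 per Mb in the 3 classes, with overlapping intervals.

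Lists of genes by function were set beside all genes of the same length classes, whose shares give the number of holders for genes of that length. Over all 21631 genes, 13.1% held a member, 7.99% a shared intragenic peak and 3.6% an intragenic Flag peak. Of 22 lists, 16 had more genes with a member than genes of their length gave. Focal adhesion genes held a member in 16 of 30 cases, against 8.29 from genes of that length. Its members with the largest −log10 q were in Pxn (32 reads), the adaptor paxillin, Tns3 (21 reads), a tensin that links integrins to actin, Itga6 (20 reads), the laminin-binding integrin alpha 6, and Tns1 (23 reads), another tensin. Actn1, an actin crosslinker, held 5 members, among them one of 35 reads. Shared intragenic peaks were in 12 of these adhesion genes, against 4.57.

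Transcription factors and targets of the Hippo pathway, which restrains the coactivators YAP and TAZ, had 12 of 24 genes against 5.46. Tead4 held 31 reads and Tead1 13 reads, both DNA-binding partners of YAP. Ajuba, a scaffold protein, held 30 reads, Vgll4, a competitor of YAP for TEAD, 22 reads in the strongest of 6, and Wwtr1, which encodes TAZ, was also among the holders. The shared class had 11 of these genes against 3.13.

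Of the AP-1 factors and partners, 7 of 16 genes held a member, against 1.24 from length, and 2 held a shared intragenic peak, against 0.878. Batf, a lymphoid AP-1 factor, held 21 reads with −log10 q 15.8, 10.7 kb from a gene end and 126 kb from the nearest vector peak. Fosb held 30 reads, Fosl1, which encodes FRA1, 23, Mafg 22, Jdp2 12, Atf7 12, and Atf2 11 in the stronger of 2. The Fosl1 peak lay 732 bp from a vector peak and 1136 bp from a gene end. Of the 16 genes, 11 had a vector gene-end peak and 13 a gene-end peak in POH1-Flag MYC.

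TGF-beta and BMP genes had 12 of 25 against 6.0, with the inhibitory Smad7 at 21 reads, the corepressor Ski at 19, the type I receptor Acvr1 at 16, the ligand Tgfb2 at 15 and the signal transducers Smad1 and Smad3 at 11. Receptor tyrosine kinases had 13 of 29 against 8.05, while shared peaks were in 4 against 4.42. Mertk held 21 and 16 reads, Ddr1, a collagen receptor, 26, Erbb4 14, Pdgfra 14 and Egfr 12. The epithelial and mesenchymal list had 10 of 26 against 4.22. It held both epithelial Krt8 (34 reads), Grhl2 (13), Ocln (11) and Cdh1, and mesenchymal Zeb1 (13), Zeb2 (13) and Twist2 (16). Collagens and laminins had 11 of 25 against 7.21, with 26 reads in Col4a2. That share of 44.0% had an interval of 26.7 to 62.9%, which holds the 28.8% of genes of that length. Shared intragenic peaks were in 7 TGF-beta and BMP genes against 3.35. They were in 4 genes of the epithelial and mesenchymal list against 2.49, and in 8 collagens and laminins against 4.02.

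**Figure D4:**
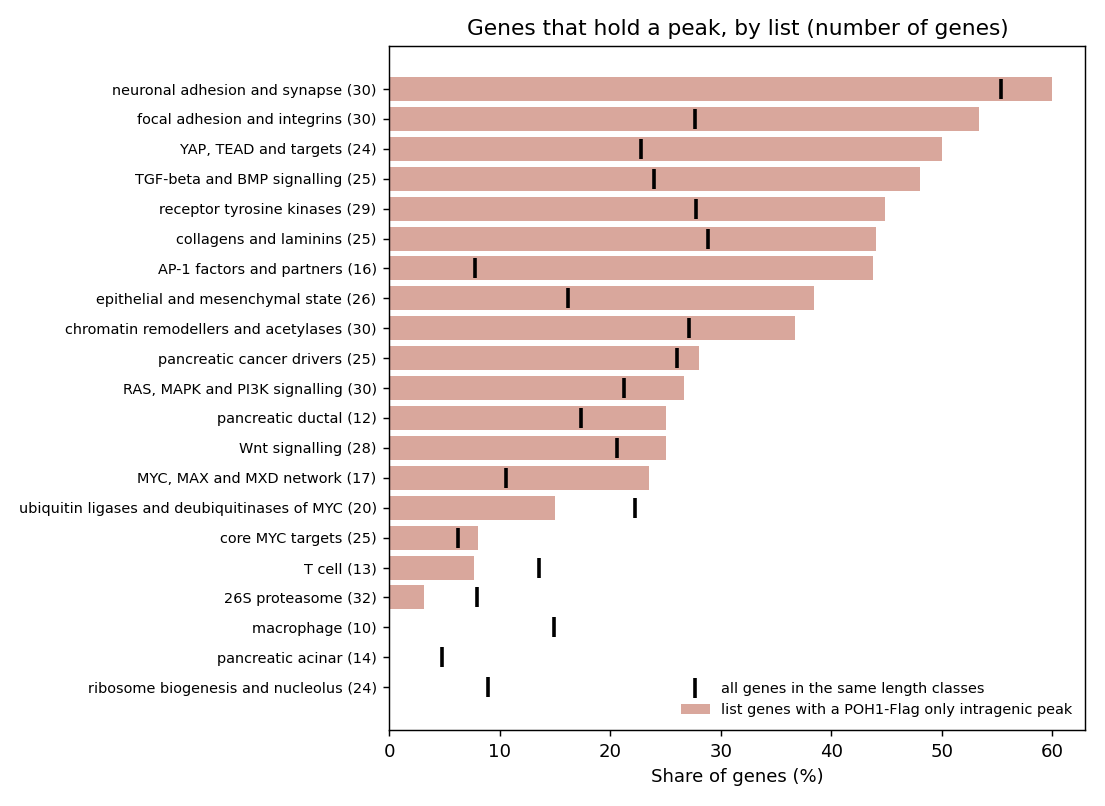
Share of the genes in each list shown that hold a member (bars, %), with the share over all protein-coding genes of the same length classes (black marks) and the number of genes in brackets. AP-1 genes reach 7 of 16 and focal adhesion genes 16 of 30, while ribosome biogenesis has 0 of 24 (interval up to 13.8%).

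In the MYC, MAX and MXD network 4 of 17 genes held a member, against 1.80 from length. That share of 23.5% had an interval of 9.56 to 47.3%, which holds the 10.6% of genes of that length. Each of these members was weak: Ruvbl1 (12 reads), an ATPase of chromatin remodelling, Zbtb17 (9 reads), which encodes MIZ1, Mlxipl (8 reads) and the cofactor Trrap (8 reads). Core MYC targets had 2 of 25 against 1.56, Eif4e and Ccnd2. Ribosome biogenesis had 0 of 24 against 2.15, although 22 of these genes had a vector gene-end MYC peak and 24 a gene-end peak in POH1-Flag MYC. The interval of that share of 0 reached 13.8%, which holds the 8.95% of genes of that length. The 26S proteasome had 1 of 32 against 2.54, Psmb7 with 12 reads, and ubiquitin ligases and deubiquitinases of MYC 3 of 20 against 4.44, among them Usp7 with 17 reads.

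Lists close to their length share included pancreatic cancer drivers with 7 of 25 against 6.50, RAS, MAPK and PI3K signalling with 8 of 30 against 6.36, Wnt signalling with 7 of 28 against 5.77, and chromatin remodellers with 11 of 30 against 8.15. The longest genes, of neuronal adhesion and the synapse, had 18 of 30 against 16.6. For other cell types, acinar genes had 0 of 14 against 0.662, macrophage genes 0 of 10 against 1.49, T cell genes 1 of 13 against 1.77 (Themis, 11 reads) and ductal genes 3 of 12 against 2.08. The intervals of the acinar and macrophage shares reached 21.5% and 27.8%.

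Chromosome X stood apart from the autosomes. It held 1.46 members per Mb (1.13 to 1.87), and the 19 autosomes together 4.38 (4.25 to 4.52), ranging from 2.88 on chromosome 16 to 5.21 on chromosome 15. Shared intragenic peaks on X were at 0.343 per Mb. The median background at members was 0.848 reads on X and 1.64 on the autosomes, and its part in the lower density was not tested.

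**Figure D5:**
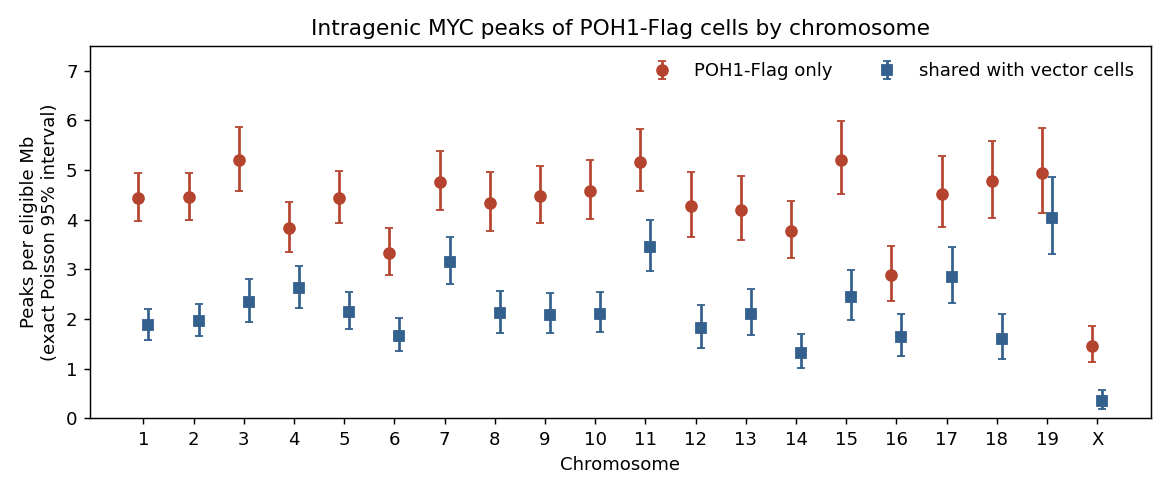
Members (red) and shared intragenic MYC peaks (blue) per eligible Mb on each chromosome, with exact Poisson 95% intervals. Chromosome X has 1.46 members per Mb, below each of the 19 autosomes.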

How the data were processed

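CUT&Tag peak lists of 3 libraries were used, with 1 library per group. Per the submitters' processing notes, MACS2 2.2.7.1, BWA 0.7.17-r1188, Trim Galore 0.6.6 and FastQC 0.11.9 were used with the build GRCm38 (mm10). Parameters, a control and duplicate handling were not given in the sources used here. Peaks were deposited as 1 list per library. The authors' fold enrichment is a linear ratio at the summit, and the −log10 p and q of the authors also refer to the summit. The authors' score is −log10 q times 10, truncated, in nearly every peak, and positions are deposited in bp. Fold and q were used to describe or filter peaks within a list.

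Whole reads at each summit (pileup) and the local background were solved from the deposited fold and −log10 p. A whole number came out for 100% of peaks, within 0.01 of a read step. The steps were tested on simulated data, and 100% of 5000 simulated pileups were recovered. Total reads were not given in the sources used here, so depth is the genome-wide background over the smallest peak width. Duplicates that were kept would make the intervals too narrow.

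Overlap meant at least 1 shared bp. Gene positions were those of RefSeq on GRCm38.p6, with 21631 protein-coding genes on chromosomes 1 to 19 and X. Starts, strands and sequence came from a RefSeq promoter table, which matched 17274 of them. The planned search for E-boxes at summits was replaced by the windows of that table, and exons and introns were not analysed here. Shares carry Wilson intervals, densities exact Poisson intervals, differences Newcombe intervals and medians order-statistic intervals, all at 95%. The share of 0 at internal starts, for peaks that meet a Flag peak, is given with the limit that 3 counts allow. No test was run. Computation used Python 3.11.15, NumPy 2.4.6, pandas 2.3.3, SciPy 1.17.1 and Matplotlib 3.10.9.

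The members and the 22 gene lists were chosen with earlier results of these data known. Named genes were the hosts of the 12 members with the largest −log10 q, the 8 genes with most members, the strongest holder of each list, the members nearest the 1 kb limit, and Myc, Max and Psmd14, leaving out predicted genes. Some genes and a list chosen by these rules are not reported here. Further list genes were named after their values were seen. Alternatives were stricter q and fold limits, a gap to other peaks, other distances from gene ends, Flag-meeting peaks kept, predicted genes left out and autosomes alone. The internal-start share with its 2 other distances, and the repeats for lists and motifs, were added after seeing the data.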

Additional observations from a re-analysis of the deposited data

How the results depend on the processing

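The 4196 members became 1567 with −log10 q limited to 5 and above, 189 to 10 and above, and 1389 with fold limited to 5 and above, and their host genes 1288, 184 and 1160. The median pileup was then 16, 22 and 14 reads, and the density 1.59, 0.192 and 1.41 per Mb. The density was 4.10 and 3.91 per Mb without other peaks within 500 or 2000 bp, 4.02 and 3.90 beyond 2 or 5 kb from gene ends, and 4.43 with Flag-meeting peaks kept. The median pileup was 11 reads at 2000 bp, at 2 kb and at 5 kb. The internal-start share was 12.2%, 15.6% and 10.2% under the q and fold limits, 3.96% and 11.9% at 100 and 1000 bp from the start, and 6.42% and 5.11% beyond 2 and 5 kb. The share within 10 kb of a gene end was 35.7% at −log10 q of 5, 29.2% at fold 5, 31.0% without peaks within 2000 bp, and 26.9% and 16.2% beyond 2 and 5 kb. The share with a vector gene-end peak in the host was 25.8% at fold 5 and 27.6% without peaks within 2000 bp. The E-box share at internal starts was 19.4% at −log10 q of 10, with a wide interval (9.19 to 36.3%) that holds the main value of 9.29%. Under the other alternatives run it was within the counting interval of the main value. Lists above their length share numbered 11 to 16 under all alternatives. Limits on distance change these values by construction, and the cause of the other shifts was not tested. No paired analysis was possible because each group had 1 library. Pileups near 10 reads leave each single member uncertain.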

Other observations

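Noncoding genes inside host genes were near some members. Within 1 kb of an end of a lncRNA lay 145 members (3.46%), where such bases made up 1.27% of eligible sequence, a density of 11.5 per Mb (9.74 to 13.6). Shared intragenic peaks were at 11.5 per Mb (9.67 to 13.5) in the same bases. Within 1 kb of a miRNA end lay 15 members, at 11.3 per Mb (6.33 to 18.7) in 0.134% of eligible bases, and 9 shared peaks, at 6.79 per Mb (3.10 to 12.9), with overlapping intervals. Trib2, a pseudokinase gene, had 2 of them at Mir6387, with 18 and 20 reads. Krt80, a keratin gene, had 38 reads 556 bp from Mir1941, and Pde2a, a cyclic nucleotide phosphodiesterase gene, 19 reads 748 bp from Mir139. Pseudogene ends had 18 members within 1 kb, at 3.08 per Mb (1.83 to 4.87), and ends of snoRNA genes none of 4196 members, at 0.0795% of eligible bases. The snoRNA count allows up to 4.71 per Mb, above the 4.25 per Mb over all eligible bases.

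Hosts also overlapped in class. Of the 2832 host genes, 704 (24.9%) held a shared intragenic MYC peak as well, against 7.99% of all genes and 15.1% of genes of the same length classes. Members inside more than 1 gene at once numbered 40.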
